A study of Rattus norvegicus with 24 samples.

Results

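Genes of matrix degradation, namely the matrix metalloproteinases Mmp2, Mmp3, Mmp9 and Mmp14, the aggrecanase Adamts1 and the tissue inhibitors of metalloproteinases Timp1 to Timp4, were examined in the left ventricle of rats after myocardial infarction (MI). They were taken as the probes that the array annotation assigns to these 9 symbols. A single probe was assigned to each of 8 genes and none to Timp4, so 8 of the 22523 probes are described here and Timp4 was not analysed. The RNA came from left ventricle outside the infarct of 12 rats (Sprague-Dawley, female, 3 months old), taken 4 weeks after surgery. Sham rats 1 to 4 had a suture tied loosely around the left anterior descending artery and a placebo pellet, MI rats 5 to 8 had the artery ligated and a placebo pellet, and MI+T4 rats 5 to 8 had the same ligation and a subcutaneous thyroxine (T4) pellet of 3.3 mg made to release over 60 days. Each rat was hybridized on 2 BeadChips, and values below are means of the 2 arrays of a rat on the deposited scale, which is close to log2. Rats with very small or very large infarcts had been left out by the study, and the 4 rats of each group were drawn at random from larger groups, so the infarcted groups stand for hearts with a moderate to large infarct only.

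Matrix metalloproteinases are zinc enzymes that are secreted or anchored in the membrane as inactive proenzymes and that cut collagens, gelatins, proteoglycans and other matrix proteins. Each TIMP binds the active site of such an enzyme, so the turnover of the matrix is set by enzyme, activation and inhibitor together. After infarction these enzymes are known for the breakdown of the collagen network in the infarct and for remodeling of the remote wall. RNA on an array is a measure of the message and not of proenzyme, activation or inhibitor protein.

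Upstream sequences are shown for the 2 genes whose probes rose after MI, Timp2 and Adamts1, and for Mmp3, whose probe varied most between rats. They are the 250 bases before the start used in a RefSeq promoter table of the GRCr8 assembly, read 5′ to 3′ on the strand of the gene, at chr8:12925031-12925280 (plus strand) for Mmp3, chr10:104089215-104089464 (minus strand) for Timp2 and chr11:38427385-38427634 (minus strand) for Adamts1. Capitals mark matches on either strand to the AP-1 motif TGAGTCA or to the GC box GGGCGG, which reads CCGCCC where it lies on the other strand.
Mmp3: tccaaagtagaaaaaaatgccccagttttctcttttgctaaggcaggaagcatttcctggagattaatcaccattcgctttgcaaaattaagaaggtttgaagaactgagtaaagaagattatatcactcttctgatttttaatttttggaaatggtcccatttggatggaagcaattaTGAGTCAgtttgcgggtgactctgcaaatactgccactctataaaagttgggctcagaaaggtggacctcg
Timp2: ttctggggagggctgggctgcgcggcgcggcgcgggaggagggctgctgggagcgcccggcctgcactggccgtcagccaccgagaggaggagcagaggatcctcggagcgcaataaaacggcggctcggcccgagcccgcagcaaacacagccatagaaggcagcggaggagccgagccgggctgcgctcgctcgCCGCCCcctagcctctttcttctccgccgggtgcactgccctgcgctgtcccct
Adamts1: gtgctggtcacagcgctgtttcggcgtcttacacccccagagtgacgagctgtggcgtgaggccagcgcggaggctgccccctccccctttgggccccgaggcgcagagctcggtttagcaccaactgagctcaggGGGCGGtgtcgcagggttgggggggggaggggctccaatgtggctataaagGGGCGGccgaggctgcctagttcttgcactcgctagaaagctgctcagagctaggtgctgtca
Mmp3 held an AP-1 match from -71 to -65 and a TATA motif (TATAAA) from -32 to -27, counted back from the base before the start as -1. The RefSeq gene entry of Mmp3 begins at 12925267, so the last 14 bases of its window lie inside the annotated gene, and its positions would shift by as much if counted from there. Timp2 held a single GC box from -54 to -49 and no TATAAA, and Adamts1 held GC boxes from -114 to -109 and from -63 to -58 with a TATAAA from -70 to -65. No marked motif overlapped another. Over 33469 promoter windows of this length, 4.05% held the AP-1 motif, 30.5% the GC box and 12.9% TATAAA. The letters AGGTCA, the core of the thyroid hormone response element, were in none of the 3 windows and in 14.1% of all windows. These matches describe the letters only.

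All 24 arrays had medians between 7.814 and 7.82. Muscle markers were high in every rat, with a mean over 6 cardiomyocyte genes of 13.10 to 13.41. Several rats stood apart within their groups. Sham rats 3 and 4 had Spp1 (osteopontin) at 12.52 and 13.81 against 9.62 and 9.60 in Sham rats 1 and 2, and Myl7 (atrial myosin light chain) at 9.29 and 9.68 against 14.28 and 14.19. MI rat 8 had Spp1 at 12.59 against 10.09 to 10.69 in the other MI rats. Where a call or a direction changed without Sham rats 3 and 4, or without MI rats 5 and 8 and MI+T4 rat 7, the value without them is also given. Both sets were chosen after the values had been seen. They hold the highest rats of their groups for several genes, so for those genes a shift was built in.

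MI vs Sham asked which of these genes differ in surviving muscle after infarction. Timp2 and Adamts1 were higher in MI, and the other 6 genes did not pass the test. The test was a linear model in limma on all 24 arrays in which the pair of arrays of each rat shared a common correlation of 0.243, called at a Benjamini-Hochberg adjusted p under 0.05 over all probes. By this rule 426 of 22523 probes were called higher in MI, a background of 1.89%, and 388 lower, which is 1.72%. Among the 8 genes 2 were called higher and 0 lower, their median difference was 0.24, and the median over all probes was -0.004. For the probes called in this comparison the arrays of a rat in fact correlated at a median of 0.761, so these p-values can be too small. When limma was run on rat means (1 value for each rat), 0 probes (0.0%) passed, with 0.0661 as the smallest adjusted p, while 2561 had an unadjusted p under 0.05, 2 of the 8 genes among them. Only the p-values from rat means measure the spread between 4 rats per group. Those of the fit on both arrays count the arrays of a rat as partly separate.

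**Figure D1:**
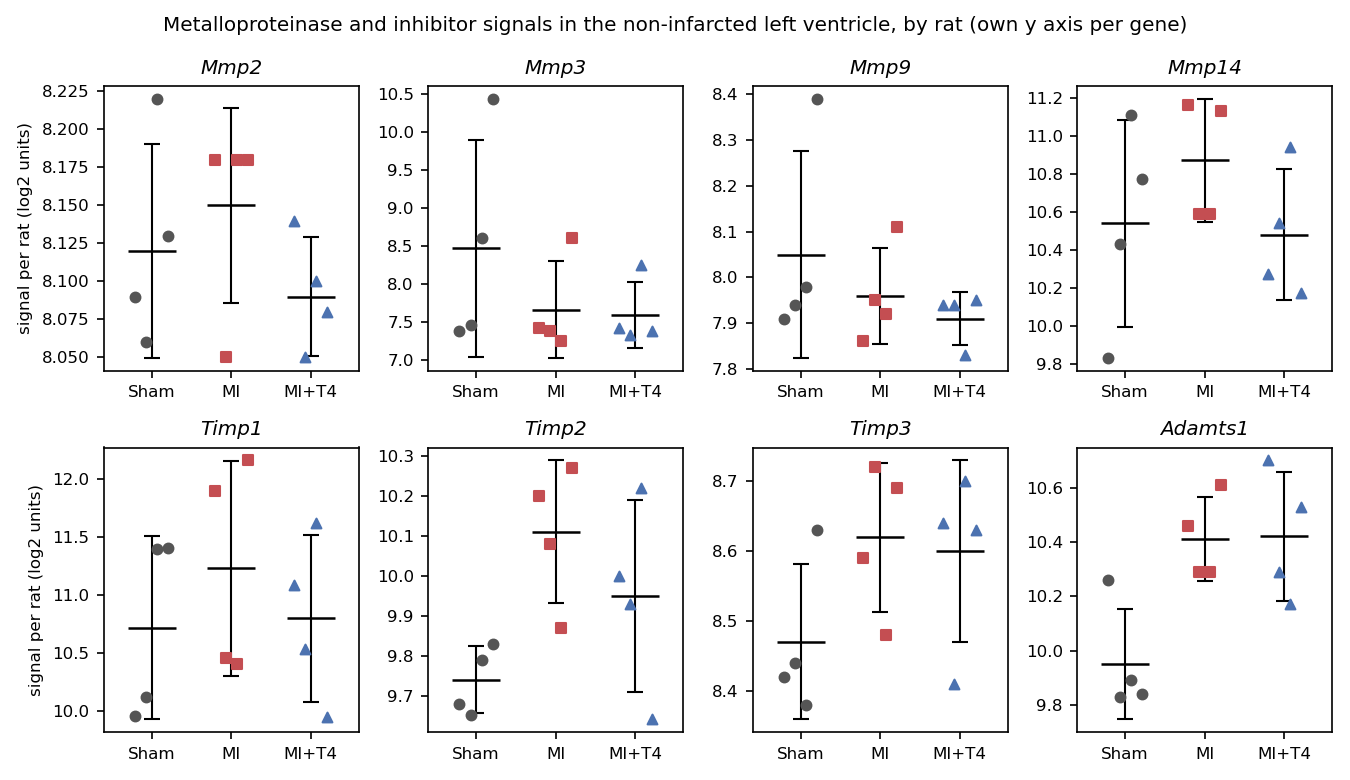
Signal of the 8 genes in each rat (log2 units, each gene with its own y axis) in Sham, MI and MI+T4, with points for rats, a horizontal line for the mean of 4 rats and bars for the SD. Timp2 and Adamts1 are higher in all 4 MI rats than in any Sham rat, while the Mmp3 signal is highest in Sham rat 4 (10.44), followed by Sham rat 3 and MI rat 8 (8.61 each).

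Mmp3 (stromelysin-1), which cuts proteoglycans and activates other proenzymes, differed more between rats than between groups. Its signals in Sham rats 1 to 4 were 7.38, 7.46, 8.61 and 10.44, those in MI rats 5 to 8 were 7.41, 7.38, 7.25 and 8.61, and those in MI+T4 rats 5 to 8 were 7.42, 7.33, 8.25 and 7.38. Thus 4 rats, found in all 3 groups, were high, and the other 8 lay between 7.25 and 7.46, below the median of every array. The 2 arrays of a rat correlated at 0.99 for this probe, so the high signals were measured on both. The MI mean was 0.81 lower than the Sham mean on the log2 scale (SE 0.38), which did not pass (adjusted p = 0.315). Without Sham rats 3 and 4 the difference was 0.24 in the opposite direction (adjusted p = 0.803). These were the highest Sham rats for Mmp3, so leaving them out had to lower the Sham mean.

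Mmp9 (gelatinase B), an enzyme of neutrophils and macrophages, gave a low signal near the median of all probes. The Sham rats had 7.91, 7.94, 7.98 and 8.39, the MI rats 7.86, 7.95, 7.92 and 8.11, and the MI+T4 rats 7.94, 7.94, 7.83 and 7.95. Sham rat 4 and MI rat 8 were the highest of their groups for Mmp9 as for Mmp3. The difference of MI from Sham was -0.09 (SE 0.07, adjusted p = 0.663).

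Mmp2 (gelatinase A), the main gelatinase of fibroblasts, was measured by a probe that did not separate rats from noise. Its 12 signals lay between 8.05 and 8.22, a range of 0.18, while the 2 arrays of a single rat differed by up to 0.229 and correlated at only 0.09 over rats. No difference in Mmp2 could be seen at this precision. The difference of MI from Sham was 0.02 with a 95% interval from -0.08 to 0.12 over rat means.

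Mmp14 (membrane type 1 metalloproteinase), which activates proMmp2 at the cell surface, had a strong and repeatable signal. It was 9.83, 10.43, 11.11 and 10.77 in the Sham rats, 11.16, 10.59, 10.59 and 11.13 in the MI rats, and 10.27, 10.54, 10.94 and 10.17 in the MI+T4 rats. MI rats 5 and 8 lay above all Sham rats and the other MI rats within the Sham range. The difference of MI from Sham was 0.33 (SE 0.17, adjusted p = 0.398). It was 0.10 without Sham rat 1 (adjusted p = 0.892). In settings chosen after the values had been seen, it was 0.73 without Sham rats 3 and 4 (adjusted p = 0.0368) and 0.05 without MI rats 5 and 8 and MI+T4 rat 7 (adjusted p = 0.995).

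Timp2, the inhibitor that also takes part in the activation of proMmp2 by Mmp14, rose in MI. Its signals were 9.68, 9.65, 9.79 and 9.83 in the Sham rats and 10.20, 10.08, 9.87 and 10.27 in the MI rats, so the groups did not overlap. In 593 of 22523 probes, or 2.63%, all MI rats were likewise above all Sham rats. The means were 10.11 ± 0.179 in MI and 9.74 ± 0.085 in Sham (SD, n = 4), a difference of 0.37 or 1.29-fold (SE 0.084, adjusted p = 0.012). With rat means the same difference had a 95% interval from 0.13 to 0.61 and an adjusted p of 0.263. An exact permutation test of the rat means gave p = 0.0286 (two-sided, not adjusted over probes), the smallest that 4 against 4 rats allow. Any probe without overlap gets this p (1307 of 22523 in either direction, or 5.8%), so it restates the lack of overlap. The call was lost without Sham rat 2 (adjusted p = 0.0567), without MI rat 5 (0.057) or without MI rat 8 (0.0938). Without MI rats 5 and 8 and MI+T4 rat 7 the difference was 0.24 (adjusted p = 0.267), and without Sham rats 3 and 4 it was 0.44 (0.0455).

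Timp1, the inhibitor most readily induced in injured tissue, had the largest spread among the inhibitors. It was 9.96, 10.12, 11.40 and 11.41 in the Sham rats, 11.90, 10.46, 10.41 and 12.16 in the MI rats, and 11.09, 10.54, 11.62 and 9.95 in the MI+T4 rats. Each group thus held both high and low rats, and the groups overlapped. The MI mean was 0.51 above the Sham mean (SE 0.33, adjusted p = 0.561), with a 95% interval from -0.56 to 1.58 over rat means. The difference was 1.19 without Sham rats 3 and 4 (adjusted p = 0.102) and -0.29 without MI rats 5 and 8 and MI+T4 rat 7 (adjusted p = 0.965). The rats left out were the highest of their groups for Timp1, so the direction of these shifts was built in.

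Timp3, which is bound to the matrix and inhibits ADAM and ADAMTS enzymes as well as metalloproteinases, was 8.42, 8.44, 8.38 and 8.63 in the Sham rats, 8.59, 8.72, 8.48 and 8.69 in the MI rats, and 8.64, 8.41, 8.70 and 8.63 in the MI+T4 rats. The MI rats were all above the Sham mean of 8.47, but 2 of them were below Sham rat 4. The difference was 0.15 (SE 0.073, adjusted p = 0.344). The arrays of a rat correlated at 0.33 for this probe and differed by up to 0.429.

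Adamts1, a secreted metalloproteinase that cuts aggrecan and versican, rose in MI. Its signals were 10.26, 9.83, 9.89 and 9.84 in the Sham rats and 10.46, 10.29, 10.29 and 10.61 in the MI rats, again without overlap, although Sham rat 1 came close to MI rats 6 and 7. The means were 10.41 ± 0.155 in MI and 9.95 ± 0.204 in Sham (SD, n = 4), a difference of 0.46 or 1.37-fold (SE 0.096, adjusted p = 0.00698). With rat means the interval was 0.19 to 0.73 and the adjusted p 0.228. The exact permutation p was 0.0286 (two-sided), as for Timp2. The call was lost without MI rat 8 (adjusted p = 0.0597), and also without Sham rats 3 and 4 together (difference 0.36, adjusted p = 0.114) and without MI rats 5 and 8 and MI+T4 rat 7 (0.33, adjusted p = 0.206).

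Fibroblast markers moved in the same direction as Timp2 and Adamts1 in MI. Of 8 fibroblast genes measured, 4 were called higher in MI (Pdgfra, Dpt, Pi16 and Cd248) and 0 lower, and the mean over the list was 11.80, 11.71, 12.01 and 12.02 in the Sham rats and 12.96, 12.28, 12.01 and 12.73 in the MI rats. MI rats 5 and 8, which had the highest Timp2, Timp1, Mmp14 and Adamts1 of their group, were also highest for these markers. For Adamts1 this did not hold in the MI+T4 group. There rat 7 had the highest marker mean (12.57) and the highest Timp2, Timp1 and Mmp14, but the lowest Adamts1 (10.17). MI+T4 rat 8 had the lowest marker mean (11.82) with Adamts1 at 10.53. The mean over 5 macrophage genes was 9.15 to 9.66 in Sham and 9.61 to 10.08 in MI, and 0 of them were called by limma (3 at an unadjusted p under 0.05). The mean over 5 neutrophil genes was below the median of the arrays, at 7.63 to 7.69 in Sham and 7.66 to 7.72 in MI. The part of these cells in the differences was not tested. In pieces of whole tissue, more cells of a type and more RNA per cell cannot be told apart.

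**Figure D2:**
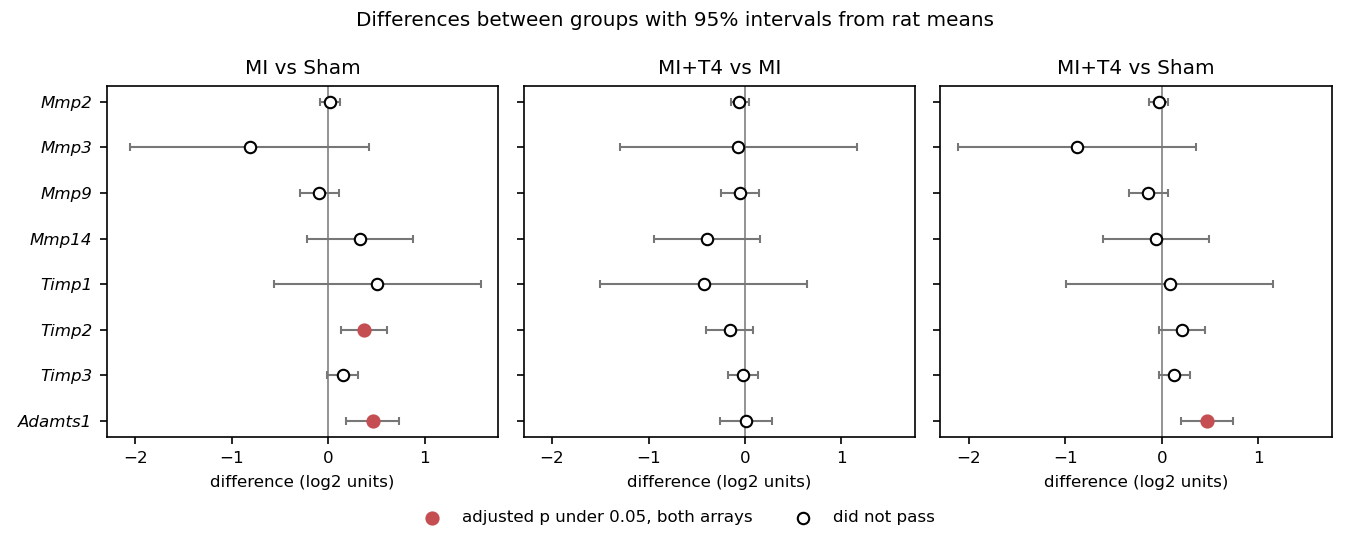
Differences in log2 units (points) for the 8 genes in each of the 3 comparisons, with bars for the 95% intervals from rat means and filled points where the adjusted p of the fit on both arrays was under 0.05. Filled points stand at Timp2 (0.37) and Adamts1 (0.46) in MI vs Sham and at Adamts1 (0.47) in MI+T4 vs Sham, and the intervals of Mmp3 and Timp1 are the widest.

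MI+T4 vs MI asked whether the hormone altered these genes in infarcted hearts. No gene of the 8 was called, and neither was any of the 22523 probes (0 called, 0.0%, by limma on both arrays and by rat means, but 289, and 0 of the 8 genes, by the moderated F named in the study's methods followed by an unadjusted p, with 1670 and 1228 probes at an unadjusted p under 0.05, of the 8 genes 1 and 0). The median difference of the 8 genes was -0.06, against 0.002 over all probes, and 1 of 8 differences was above 0. The sizes that remain possible differ widely between the genes.

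Mmp14 was 10.87 ± 0.324 in MI and 10.48 ± 0.344 in MI+T4 (SD, n = 4), a difference of -0.39 (SE 0.17, adjusted p = 0.613) with a 95% interval from -0.94 to 0.16 over rat means. The 4 MI+T4 rats included 3 below all MI rats, and MI+T4 rat 7, at 10.94, lay among them. Timp1 differed by -0.43 (SE 0.33, adjusted p = 0.865), with an interval from -1.50 to 0.64. Timp2 was 10.00, 9.93, 10.22 and 9.64 in the MI+T4 rats and differed from MI by -0.16 (SE 0.084, adjusted p = 0.716), with an interval from -0.40 to 0.08.

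Adamts1 was 10.70, 10.29, 10.17 and 10.53 in the MI+T4 rats, a mean of 10.42 ± 0.236 that was 0.01 from the MI mean (adjusted p = 0.996). The interval of this difference, -0.26 to 0.28, is narrower than those of Timp1 and Mmp14. The differences of Mmp2, Mmp3, Mmp9 and Timp3 lay between -0.07 and -0.02, but for Mmp3 the interval ran from -1.30 to 1.16. The arrays of a rat correlated at only 0.09 for Mmp2 and 0.33 for Timp3, and Mmp9 gave a low signal. Small differences of these probes therefore do not show that the message was unchanged.

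MI+T4 vs Sham uses the same 4 Sham rats as MI vs Sham, so the comparisons are not independent. Adamts1 was the 1 gene of the 8 called higher, against a background of 162 probes or 0.719% (0 genes and 121 probes, 0.537%, were lower, and with rat means 1 probe, 0.00444%, passed). It was 0.47 or 1.38-fold above Sham (SE 0.096, adjusted p = 0.0103; with rat means 0.337, interval 0.20 to 0.74), and 3 of the 4 MI+T4 rats were above the highest Sham rat (exact permutation p = 0.0571, two-sided). MI+T4 rat 7, at 10.17, lay below Sham rat 1. The call was lost without Sham rat 2 (adjusted p = 0.054), without MI+T4 rat 5 (0.0645) and without Sham rats 3 and 4 together (0.16).

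Timp2 in MI+T4 was 0.21 above Sham (SE 0.084, adjusted p = 0.305), with 3 of 4 rats above the highest Sham rat. It passed without MI+T4 rat 8 (adjusted p = 0.0222). By the moderated F followed by an unadjusted p it also passed (moderated F adjusted p = 0.0311), as 1 of 506 probes. For the other 6 genes the differences from Sham lay between -0.88 for Mmp3 and 0.13 for Timp3, and none passed. Of the 8 fibroblast markers 3 were called higher in this comparison, with list means of 11.82 to 12.57 in the MI+T4 rats.

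The same rats were high for several of the genes. After subtraction of the group mean, Timp1 and Timp2 correlated at 0.86 over the 12 rats, Mmp14 and Timp1 at 0.85, Mmp3 and Mmp9 at 0.83, Mmp3 and Timp1 at 0.71 and Mmp14 and Timp2 at 0.67. Of 28 pairs 10 were above 0.5 and 6 below 0. Adamts1 did not share this pattern, with correlations from -0.46 with Mmp14 to 0.19 with Mmp2. All values of a rat come from the same piece of tissue, and rats such as Sham 4 and MI 8 weigh heavily in them.

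**Figure D3:**
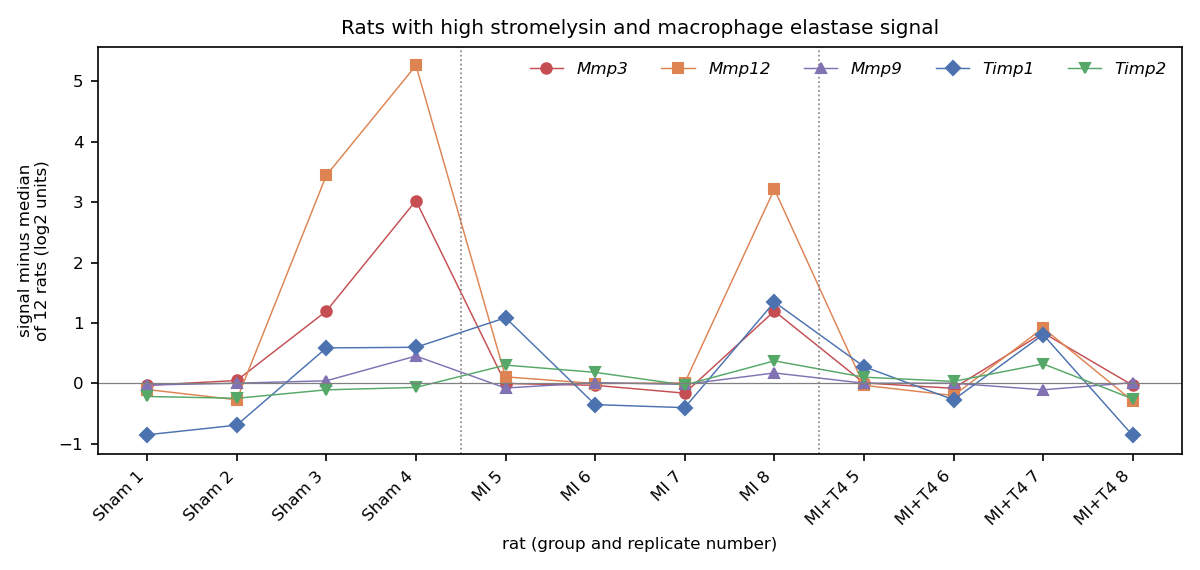
Signal minus the median of 12 rats (log2 units) of Mmp3, Mmp12, Mmp9, Timp1 and Timp2 in each rat, with dotted lines between Sham, MI and MI+T4. Mmp3 and Mmp12 peak together in Sham rats 3 and 4, MI rat 8 and, less, MI+T4 rat 7, while Timp1 is high in these rats and in MI rat 5 as well.

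Mmp12 (macrophage elastase) followed Mmp3 from rat to rat over a wider range. It was 7.87, 7.70, 11.42 and 13.24 in the Sham rats, 8.08, 7.97, 7.98 and 11.19 in the MI rats, and 7.94, 7.77, 8.89 and 7.68 in the MI+T4 rats. The macrophage marker list was less uneven but was highest in the same rats. It was 9.66 and 9.63 in Sham rats 3 and 4 against 9.41 and 9.15 in Sham rats 1 and 2. In MI rat 8 it was 10.08, with the other MI rats at 9.65, 9.72 and 9.61. In MI+T4 rat 7 it was 10.05, with the other MI+T4 rats at 9.87, 9.59 and 9.35. Myl7 was low in Sham rats 3 and 4 but high in MI rat 8 (14.13) and MI+T4 rat 7 (15.52), so it did not run along with Mmp3 outside the Sham group.

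The genes nearest to each member over the 12 rats, again with group means subtracted, were Stom, Slc16a3 and Ptprc (the leukocyte antigen CD45) for Mmp3, each at 0.98. They were Postn (periostin), Serping1 and Glb1 for Timp1, and Pepd (prolidase), Plod2 (a collagen lysyl hydroxylase) and Cmtm3 for Timp2, all at 0.97. For Mmp9 they were Slc31a2 (0.94), Mt3 and Smpdl3a (0.93), for Mmp14 Slc41a2 (0.93), C1s and Or7g34 (0.92), for Timp3 Cd70 (0.95), Or8w1 (0.89) and Siva1 (0.88), and for Adamts1 Tssk2 (0.94), Mdc1 (0.91) and Bpifa2 (0.89). Each is the highest of 13337 genes, and no chance value was computed. The noisy Mmp2 probe still reached 0.94 with Mok, followed by Tbx6 (0.90) and Sorbs3 (0.88), and the genes nearest to Adamts1 had array correlations of -0.18 to 0.23.

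Log2 ratios of an enzyme to an inhibitor, set to 0 at the Sham mean, describe how the messages moved against each other. Mmp2 to Timp2 was -0.41, -0.42, -0.07 and -0.48 in the MI rats, with a mean of -0.35 ± 0.187 (SD, n = 4) in MI and -0.25 ± 0.231 in MI+T4, against -0.09 to 0.04 in the Sham rats. Since Mmp2 did not vary beyond its noise, this ratio carries the Timp2 signal. Mmp14 to Timp2 was -0.04 ± 0.198 in MI and -0.27 ± 0.193 in MI+T4, with Sham rats from -0.65 to 0.52. Mmp3 to Timp1 was -1.32 ± 0.648 in MI and -0.96 ± 0.464 in MI+T4, but the Sham rats ranged from -0.54 to 1.28. In the rats whose Mmp3 lay below the array medians, this ratio mostly carries the Timp1 signal. Mmp9 to Timp1 was -0.60 ± 0.893 in MI and -0.22 ± 0.764 in MI+T4, with Sham rats from -0.75 to 0.62. Mmp9 ranged over 0.56 in the 12 rats and Timp1 over 2.21, so the Mmp9 ratio also mostly carries the Timp1 signal. Adamts1 to Timp3 was 0.31 ± 0.155 in MI (0.08 to 0.43) and 0.34 ± 0.249 in MI+T4, and overlapped the Sham range of -0.28 to 0.35.

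No other enzyme of the matrix metalloproteinase and ADAMTS families passed the test. Of 18 further matrix metalloproteinases 16 were measured and 0 were called in any comparison by limma, with 2 in MI vs Sham at an unadjusted p under 0.05 (3 with rat means). Over all probes 14.3% had such a p in this comparison (11.4% with rat means) and 10.2% in MI+T4 vs Sham. The largest differences of MI from Sham were those of Mmp12 (-1.26, adjusted p = 0.498, and 1.02 without Sham rats 3 and 4) and of Mmp23 (0.42, SE 0.12, adjusted p = 0.052). Of 23 further ADAMTS and ADAMTS-like genes 12 were measured and 0 were called, with 3 at an unadjusted p under 0.05 in MI vs Sham (1 with rat means), the largest differences being those of Adamts2, the procollagen N-proteinase (0.49, SE 0.16, adjusted p = 0.0879), and Adamts9 (0.21, adjusted p = 0.108). With quantile normalization and all rats Mmp23 passed narrowly (0.43, adjusted p = 0.0483). Mmp23 and Adamts2 each passed without MI rat 6 (adjusted p = 0.0193 and 0.0139) or without MI rat 7 (0.00264 and 0.0124). Without MI rat 5 both differences were 0.32 (adjusted p = 0.293 and 0.468), and without MI rats 5 and 8 and MI+T4 rat 7 they were 0.07 and 0.03 (adjusted p = 0.985 and 0.995).

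Of 8 membrane ADAM sheddases 4 were measured, and Adam17, the enzyme that releases TNF and is inhibited by Timp3, was called higher in MI. It was 10.25, 10.37, 10.40 and 10.28 in the Sham rats, 10.45, 10.55, 10.65 and 10.59 in the MI rats, and 10.66, 10.85, 10.85 and 10.40 in the MI+T4 rats. All 4 MI rats were above the Sham rats. The difference was 0.24 in MI vs Sham (SE 0.066, adjusted p = 0.0409) and 0.37 in MI+T4 vs Sham (SE 0.066, adjusted p = 0.0035). The call in MI vs Sham was lost without any single one of the 8 rats (adjusted p from 0.0551 to 0.164), without Sham rats 3 and 4 together (0.15), without MI rats 5 and 8 and MI+T4 rat 7 (0.157) and with rat means (0.346). The call in MI vs Sham was also lost with a trended and robust prior (0.0513), quantile normalization (0.0585) and dim probes left out (0.0545). Technical replicate 1 or 2 alone gave 0.386 and 0.4. In MI+T4 vs Sham the call was lost with rat means (0.293) and with technical replicate 1 or 2 alone (0.305 and 0.402).

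Of 17 genes that activate or restrain metalloproteinases 12 were measured and 2 were called higher in MI. Plat (tissue plasminogen activator), which starts the plasmin cascade upstream of several proenzymes, was 11.07, 11.22, 11.00 and 10.64 in the Sham rats and 11.35, 11.20, 11.42 and 11.35 in the MI rats, a difference of 0.35 (SE 0.081, adjusted p = 0.013). Reck, a membrane-anchored inhibitor, was 10.51, 10.50, 10.36 and 10.49 in the Sham rats and 11.09, 10.71, 10.47 and 11.14 in the MI rats, a difference of 0.39 (SE 0.10, adjusted p = 0.0326). For both genes the groups overlapped by 1 MI rat. A second, dimmer Reck probe differed by -0.03 and was not called. With rat means neither passed (adjusted p = 0.274 for Plat and 0.35 for Reck), nor with either technical replicate alone. By the moderated F Plat passed (adjusted p = 0.0349) and Reck did not (0.0809). Plat was lost without Sham rat 4 (0.0653), MI rat 5 (0.0562) or MI rat 8 (0.0626), and Reck without any of 6 rats, with 0.226 without MI rat 8 as the highest. Without Sham rats 3 and 4 together the difference was 0.19 for Plat (adjusted p = 0.27) and 0.35 for Reck (0.226), and without MI rats 5 and 8 and MI+T4 rat 7 it was 0.33 for Plat (0.243) and 0.12 for Reck (0.872). By the limma contrasts 0 genes of this list were called in MI+T4 vs MI (3 at an unadjusted p under 0.05) and 0 in MI+T4 vs Sham (6). By the moderated F followed by an unadjusted p, Spock2 and Plat passed in both comparisons (moderated F adjusted p = 0.0267 and 0.0349). So did 289 probes in MI+T4 vs MI. Spock2 was 0.40 higher in MI+T4 than in MI (SE 0.091, contrast adjusted p = 0.136, with rat means 0.889). All 4 MI+T4 rats were above the MI rats, as in 1.63% of all probes. Plat differed from MI by -0.17 (contrast adjusted p = 0.65).

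**Figure D4:**
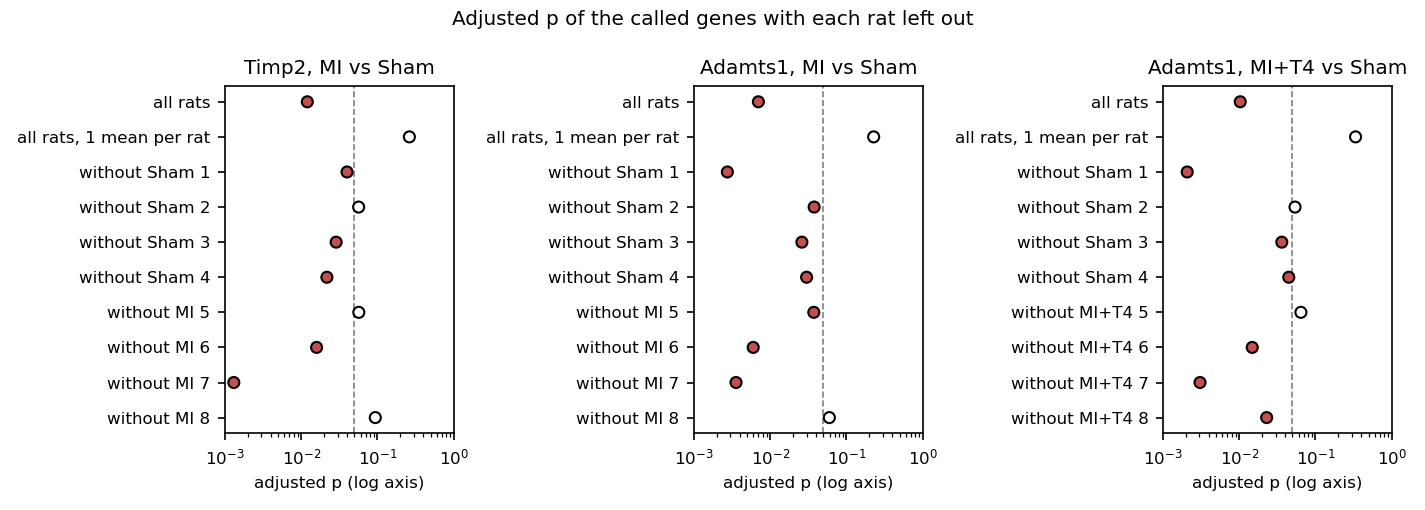
Adjusted p (log axis) of Timp2 and Adamts1 with all rats, with 1 mean per rat and with each rat left out in turn, with a dashed line at 0.05 and filled points below it. Each of the 3 panels has at least 1 rat whose removal moves the p above 0.05, and for Timp2 and Adamts1 in MI vs Sham MI rat 8 is among them (0.0938 and 0.0597).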

How the data were processed

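Left ventricular RNA from outside the infarct of 12 rats (4 Sham, 4 MI, 4 MI+T4) was hybridized to Illumina RatRef-12 BeadChips, 2 arrays per rat. The deposited log2-like values had been made by the authors with a variance stabilizing transformation similar to log2 and robust spline normalization, and range from 6.88 to 16.47. A table of non-normalized signals was not used, since no sample could be tied to its 48 columns, which carry BeadChip positions as names, so probes were not filtered on detection. The array's annotation gave 1 symbol to 13793 probes, several to 0 and none to 8730. The number of rats, 4 in each group, limits the precision of the differences between groups.

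A model of 3 group means was fitted in limma 3.58.1 (statmod 1.5.0, R 4.3.3) to all 24 arrays with the rat as block and a common correlation of 0.243, followed by eBayes. The common correlation, empirical Bayes and a false discovery rate of 5% follow the study's methods, which however dropped undetected genes and used a moderated F over the groups, given here as an alternative. The Benjamini-Hochberg adjustment ran over 22523 probes for each comparison, with a threshold of 0.05. SEs are moderated, SDs are over rat means, and 95% intervals are from the same model on 1 mean per rat. Where a gene had several probes the one with the highest mean was used. Tested on simulated data for MI vs Sham with 22523 probes, the fit on both arrays found 100 of 100 probes shifted by 1 log2 unit and 96 of 100 shifted by 0.5, with 92 false calls, and that on rat means found 96 and 90, with 8 false calls. The false share of the fit on both arrays was thus far above the nominal 5%, and that on rat means was below it. The simulated probes varied independently of each other, unlike the genes of these rats. The shifted probes were drawn at random from all probes. The shares found therefore do not hold for genes with a wide spread, such as Timp1 and Mmp3 (SE 0.49 and 0.57 over rat means).

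The genes, lists, rules and alternatives were chosen with earlier results of these data known. Named were all measured members, in each other list every called gene or, with none, the 2 largest differences between MI and Sham (marker lists are given by counts and means), and the 3 genes nearest to each member by Pearson r over 12 rats. Alternatives were rat means, only the compared groups, a trended and robust prior, the technical replicate number as a term, each technical replicate alone, quantile normalization, dim probes left out, a moderated F, each rat left out and the replicate number as a block. Added after values were seen were fits without Sham rats 3 and 4 and without MI rats 5 and 8 and MI+T4 rat 7. Promoter windows and motifs were read from the RefSeq table, which held 6 of the 9 genes. Plots were made in Python 3.11.15 with matplotlib 3.10.9.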

Additional observations from a re-analysis of the deposited data

Results flagged for a closer look

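In 24 sets of 4 rats (8 genes in 3 groups), 6 held a rat far from the other rats by Dixon's ratio, where chance gives about 1 in 20. Mmp3 was 8.61 in MI rat 8, with the other MI rats at 7.25 to 7.41, and 8.25 in MI+T4 rat 7, with the others at 7.33 to 7.42. Mmp9 was 8.39 in Sham rat 4, with the others at 7.91 to 7.98, and 7.83 in MI+T4 rat 7, with the others at 7.94 to 7.95. Adamts1 was 10.26 in Sham rat 1, with the others at 9.83 to 9.89, and this rat narrows the gap between the groups. Mmp2 was 8.05 in MI rat 6, with the others all at 8.18, a gap smaller than the 0.229 that separated the 2 arrays of a rat at most for this probe.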

How the results depend on the processing

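The calls of Timp2 and Adamts1 rested on entering both arrays of a rat. In MI vs Sham 2 of the 8 genes were called (0 with rat means, 0 and 0 with technical replicate 1 or 2 alone, 0 without MI rats 5 and 8 and MI+T4 rat 7, and 0 to 2 with each rat left out). Probes called there numbered 814, against 0 with rat means, 0 and 3 with technical replicate 1 or 2 alone, 236 without Sham rats 3 and 4, 86 without MI rats 5 and 8 and MI+T4 rat 7, and 193 to 1574 with each rat left out. In MI+T4 vs MI 0 probes were called, against 1 with only the compared groups, 1 with a trended and robust prior, 1 without MI rats 5 and 8 and MI+T4 rat 7, 289 by the moderated F and 0 to 76 with each rat left out; the 8 genes gave 0 in each. In MI+T4 vs Sham 1 gene was called, against 0 with rat means, 0 with either technical replicate alone, 0 without Sham rats 3 and 4, 2 by the moderated F and 0 to 2 with each rat left out. Probes called there numbered 283, against 1 with rat means, 1 with technical replicate 1 alone, 1 with technical replicate 2 alone, 440 with only the compared groups, 173 with dim probes left out, 99 without Sham rats 3 and 4, 506 by the moderated F and 97 to 585 with each rat left out. With the replicate number as a block in MI+T4 vs MI, 37 probes and 0 of the 8 genes were called; rats with the same number did not deviate together (correlations 0.11, 0.25, -0.53 and -0.48), so the numbers do not pair the rats.

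Differences that changed sign were not called under either setting. With technical replicate 2 alone Mmp2 was -0.04 in MI vs Sham, and with technical replicate 1 alone Timp3 was 0.06 and Adamts1 -0.02 in MI+T4 vs MI, and Mmp2 0.04 in MI+T4 vs Sham. Without Sham rats 3 and 4, Mmp3 was 0.24, Mmp9 0.04 and Mmp12 1.02 in MI vs Sham, and Mmp2 was 0.01, Mmp3 0.17, Mmp14 0.35, Mmp12 0.28 and Adamts9 -0.01 in MI+T4 vs Sham. Without MI rats 5 and 8 and MI+T4 rat 7, Mmp2 was -0.01 and Timp1 -0.29 in MI vs Sham, Mmp3 was 0.06, Mmp9 0.01, Timp1 0.10, Adamts2 0.07 and Reck 0.01 in MI+T4 vs MI, and Timp1 was -0.19 in MI+T4 vs Sham. With each rat left out, Mmp9 ran from -0.14 to 0.02 in MI vs Sham; in MI+T4 vs MI Mmp3 ran from -0.29 to 0.25, Mmp9 from -0.08 to 0.00, Timp3 from -0.07 to 0.04, Adamts1 from -0.08 to 0.10 and Mmp12 from -1.01 to 0.06; and in MI+T4 vs Sham Mmp14 ran from -0.29 to 0.14 and Timp1 from -0.19 to 0.36. The cause of these changes was not tested. Over the named genes 769 values kept direction and side of the threshold, 59 lost a call, 10 gained one and 41 changed sign. Another probe of a gene could not be tried for the 8 genes, each of which has 1 probe.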
